A study of Drosophila melanogaster with 4 samples.

Results

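Genes of phototransduction, the signalling cascade by which photoreceptors of the fly eye turn light into an electrical response, were examined in heads of Drosophila melanogaster fed tetraethylammonium chloride (TEA). The set was a list of 10 gene symbols, Arr1, Arr2, santa-maria, Galphaq, ninaA, ninaC, ninaE, norpA, inaD and trp. A symbol was kept where the array annotation named a spot for it and the spot held a value on at least 3 of the 4 arrays. Of the 10 symbols, 4 were kept, Arr1, santa-maria, Galphaq and inaD, out of 1379 genes measured to that standard. A second set of 14 measured genes came from lists of other genes that work in or around photoreceptors, so 18 eye genes are described in all. None of the 18 passed the test between TEA and control heads; with the dye swap read as below, Arr1, an arrestin, had a mean log2 ratio of 0.37 and santa-maria, a carotenoid receptor, one of -0.48.

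In fly photoreceptors light isomerises the chromophore of rhodopsin, rhodopsin activates a Gq protein, Gq activates phospholipase C, and the hydrolysis of a membrane phosphoinositide opens the TRP and TRPL cation channels. Arrestins, a kinase C, a rhodopsin phosphatase and lipid enzymes end the response and restore the membrane lipid. The chromophore is made from dietary carotenoids, and photoreceptors signal to the brain with histamine.

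The treated pools were heads of unmated Oregon-R males, a wild-type strain, given 16 mg/ml TEA, a blocker of potassium channels, in the food for 7 days. The control pools were heads of unmated Oregon-R males given normal food for the same 7 days. Flies entered the treatment at 3 to 4 days of age, 30 to a vial. The labels give 12 hours of light and 24 °C for every replicate. Each of 4 biological replicates put 1 TEA pool and 1 control pool on a 2-colour cDNA array. TEA carried Cy5 in replicates 1 and 2 and Cy3 in replicates 3 and 4. The growth notes of replicates 1 and 2 give 3 to 4 days in vials before treatment for the TEA flies and 2 to 3 days for the control flies, whereas the age label is 3 to 4 days for both. The labels call the 4 arrays biological replicates and describe separate pools of heads from several vials.

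The arrays held values for 6252, 6212, 5913 and 5445 of 27648 spots in replicates 1 to 4. All values below are log2 ratios of TEA over control after each array was centred on its own median, and a ratio carries no information on how abundant a transcript is. The direction of the ratio is not given in the sources used here, and it was read as Cy5 over Cy3, so that replicates 3 and 4 change sign. If it ran the other way on every array, every sign below would turn. As deposited, the arrays of 1 dye orientation had Pearson correlations across probes of 0.335 (replicates 1 and 2) and 0.173 (replicates 3 and 4), and arrays of opposite orientation lay between -0.336 (replicates 2 and 3) and 0.023. The Spearman correlations were 0.457 (replicates 1 and 2) and 0.341 (replicates 3 and 4). Across opposite orientations they lay between -0.235 (replicates 2 and 3) and 0.171 (replicates 1 and 4). Probes are not independent replicates, so these correlations only describe the arrays.

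Coverage of the cascade was incomplete. Of the 10 listed symbols, 6 had named spots. The spots of Arr2, the other visual arrestin, and of trp, the TRP channel that carries most of the light response, were empty on all 4 arrays. No spot was named for ninaE, the major rhodopsin of the outer photoreceptors, ninaA, its cyclophilin chaperone, ninaC, a myosin with a kinase domain, or norpA, the phospholipase C of the cascade, so these 4 genes were not analysed here. The authors emptied spots that were dim, saturated, flagged or uneven, and the table does not record which of these applied to a spot. Over the whole array 1379 of 6793 named genes, or 20.3%, had a value on at least 3 arrays.

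Arr1 encodes an arrestin that binds light-activated rhodopsin. Its log2 ratios were 0.22, 0.30, 0.16 and 0.78 in replicates 1 to 4. All 4 arrays lay above 0, and replicate 4 stood above the others. The mean was 0.37 ± 0.13 (SE, n = 4; 95% interval 0.02 to 0.71; limma adjusted p = 0.474), a 1.29-fold higher level in TEA heads than in control heads that did not pass the threshold of 0.05 after Benjamini-Hochberg adjustment. The unadjusted p was 0.040. Both spots of the Arr1 probe gave the same picture: the first stood at 0.24, 0.21, 0.13 and 0.72 and the second at 0.20, 0.40, 0.18 and 0.85 in replicates 1 to 4. The spots differed by at most 0.184 on any array, and both were highest in replicate 4. Without replicate 4 the mean was 0.23 ± 0.10 (SE, n = 3; limma adjusted p = 0.486), so replicate 4 alone moved the mean by over 1.5 times.

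santa-maria encodes a scavenger receptor of the class B type that takes up carotenoid and is needed in cells outside the retina to make the chromophore. Its log2 ratios were -0.17, -0.52 and -0.75 in replicates 1 to 3, and replicate 4 held no value. All 3 arrays lay below 0. The mean was -0.48 ± 0.16 (SE, n = 3; 95% interval -0.90 to -0.05; limma adjusted p = 0.471), a fold of 0.719 for TEA heads over control heads that did not pass the threshold, with an unadjusted p of 0.035. The 2 spots of the probe differed by at most 0.115 on any array. With 2 arrays of one dye orientation and 1 of the other, a dye effect does not cancel in this mean, and with the dye as a term the value was -0.54 ± 0.13 (SE, n = 3; limma adjusted p = 0.271).

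Galphaq, the alpha subunit of the Gq protein that rhodopsin activates, stood at 0.04, 0.21, -0.18 and -0.01 in replicates 1 to 4. The arrays lay on both sides of 0, with the TEA-in-Cy5 arrays above it and the TEA-in-Cy3 arrays below it. The mean was 0.01 ± 0.10 (SE, n = 4; 95% interval -0.24 to 0.27; limma adjusted p = 0.970). A second Galphaq probe was empty on all 4 arrays. Spots of the measured probe differed by up to 0.263, more than the size of its mean.

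inaD encodes the PDZ scaffold that holds the TRP channel, phospholipase C and kinase C in one complex. Its log2 ratios were 0.32, -0.13, 0.05 and -0.10 in replicates 1 to 4. Replicate 1 was the highest array, and the others lay closer to 0. The mean was 0.04 ± 0.11 (SE, n = 4; 95% interval -0.25 to 0.32; limma adjusted p = 0.929). For Galphaq and inaD, changes within these intervals are compatible with the values of the 4 arrays. The intervals are not limits of detection, since larger changes can also fail the adjusted threshold.

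**Figure D1:**
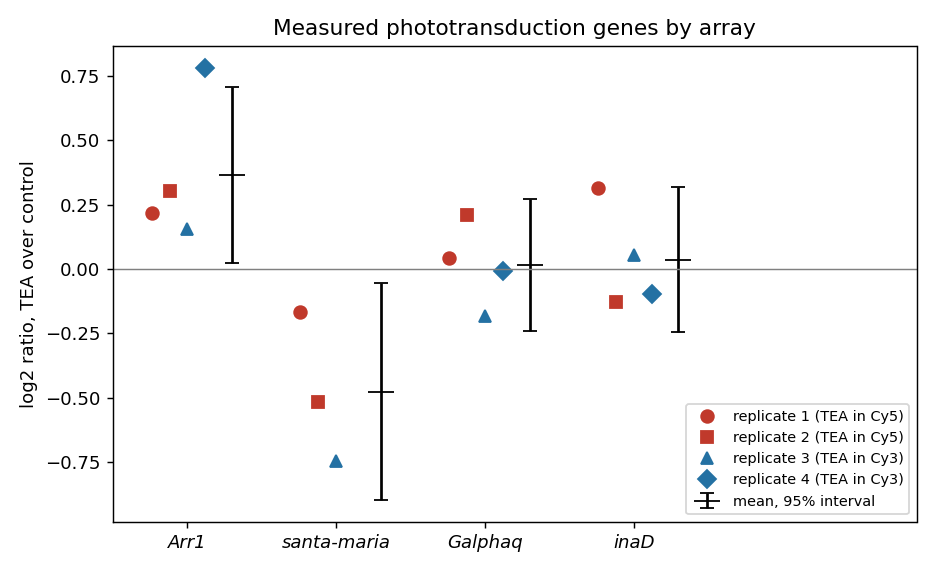
Log2 ratio of TEA over control (vertical axis) for the 4 measured listed genes, with a point for each array, red for TEA in Cy5 and blue for TEA in Cy3, and a black mark with bars for the mean and its 95% interval from limma. All 4 Arr1 arrays lie above 0 and all 3 santa-maria arrays below it, while Galphaq and inaD have arrays on both sides.

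Over the whole table limma called 0 of 3086 features at an adjusted p under 0.05 (0%), a feature being a named gene or an unnamed probe, and 301 features, or 9.75%, had an unadjusted p under 0.05. Of the 4 measured genes, 0 passed. Below an unadjusted p of 0.05 stood 1 gene with a positive mean, Arr1, where 4.7% of features did so, and 1 with a negative mean, santa-maria, where 5.06% did. The median of the 4 genes was 0.03, against 0.00 over all features, with 3 above 0 and 1 below. Means above 0 made up 50.3% of all features. A single sign on all 4 arrays, as in Arr1, was seen in 19.9% of the 2398 features with 4 values, and a single sign on all 3 arrays, as in santa-maria, in 33.1% of the 688 features with 3 values. Features farther from 0 than Arr1 made up 15.2% of the table, and features farther from 0 than santa-maria 9.62%. For the other two genes, 93.1% of features lay farther from 0 than Galphaq and 85.3% lay farther than inaD.

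The genes with the larger means pointed in opposite directions on the same arrays. Arr1 minus santa-maria was 0.39, 0.82 and 0.90 in replicates 1 to 3, a mean of 0.70 ± 0.28 (SD, n = 3), and this pair was chosen after its values were seen. Spread between arrays was ordinary for these genes. The SD over arrays was 0.285 for Arr1, 0.291 for santa-maria, 0.161 for Galphaq and 0.202 for inaD, against a median of 0.249 over all features.

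Opsin maturation and the supply of chromophore were represented by 2 of 13 listed genes. Xport-A, an endoplasmic reticulum protein that helps TRP and rhodopsin leave that compartment, stood at 0.26, 0.09, 0.39 and -0.03 in replicates 1 to 4, a mean of 0.18 ± 0.11 (SE, n = 4; limma adjusted p = 0.619). It lay above 0 on 3 arrays and just below it in replicate 4. Cnx99A, a calnexin that folds rhodopsin, stood at -0.59, -0.84, 0.18 and 0.71 as the mean of its probes, with a sign that followed the dye orientation. Its mean was -0.14 ± 0.28 (SE, n = 4; limma adjusted p = 0.880), and its 2 probes disagreed, one at -0.79 over 3 arrays and the other at 0.15 over 4 arrays. The first lay below 0 in both orientations, at -0.875, -1.473 and -0.0285 in replicates 1 to 3, and was empty in replicate 4. Only the second changed sign with the dyes, at -0.311, -0.2075, 0.3925 and 0.7097. Replicate 4 thus rests on 1 probe and the other arrays on 2, which also enters the dye difference. The dye difference of Cnx99A was -1.16 ± 0.25 (SE, n = 4; limma adjusted p = 0.292 for the dye term).

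The G protein, lipid cycle and calcium genes included 6 measured of 21 listed, with none past the threshold and a median of 0.04. trpl, the TRPL channel, which shares the light response with TRP, stood at -0.20, 0.13, 0.05 and 0.36 in replicates 1 to 4, with a mean of 0.09 ± 0.12 (SE, n = 4). inaC, the photoreceptor protein kinase C that INAD holds in the complex, stood at -0.07, -0.24, 0.02 and 0.05, with a mean of -0.06 ± 0.09 (SE, n = 4). Both genes had arrays on both sides of 0. rdgA, the diacylglycerol kinase of the lipid cycle, had -0.24, -0.38 and 0.28 in replicates 1 to 3 and no value in replicate 4, so that it too changed sign with the dyes, at a mean of -0.11 ± 0.17 (SE, n = 3). A dye effect does not cancel in this mean. With the dye as a term the rdgA value was -0.02 ± 0.11 (SE, n = 3). Pis, the phosphatidylinositol synthase, stood at -0.02, 0.15, -0.02 and -0.14, with a mean of -0.01 ± 0.09 (SE, n = 4). rtp, which encodes retinophilin, a photoreceptor protein with MORN repeats, stood at 0.25, 0.19, 0.06 and -0.17, with a mean of 0.08 ± 0.11 (SE, n = 4). inaF-D, of the inaF locus, had 2 probes with means of 0.08 and 0.13 that differed by less than the spread between arrays.

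Of the 7 genes listed under response termination, 1 was measured, rdgC. Arr1, inaC and rdgA, which also act in ending the response or restoring the lipid, are described above. rdgC encodes the calcium-dependent phosphatase that dephosphorylates rhodopsin. It stood at -0.11, 0.30, 0.16 and 0.53 in replicates 1 to 4, a mean of 0.22 ± 0.13 (SE, n = 4; 95% interval -0.11 to 0.55; limma adjusted p = 0.609). Without replicate 4 the mean was 0.12 ± 0.13 (SE, n = 3). Over the 16 eye genes with 4 values, replicate 4 was the highest array in 5, Arr1 and rdgC among them, and the lowest in 4.

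Histamine signalling had 3 measured genes of 8 listed, and all 3 means lay slightly below 0. Hdc, the histidine decarboxylase that makes histamine, stood at 0.01, -0.21, -0.05 and -0.14, with a mean of -0.10 ± 0.09 (SE, n = 4). ine, a neurotransmitter transporter of the sodium-dependent family, stood at 0.05, -0.20, -0.14 and -0.12, with a mean of -0.10 ± 0.09 (SE, n = 4). The Hdc and ine probes are next to each other in the table. The unnamed position before Hdc stood at 0.14, -0.21, -0.02 and -0.09 in replicates 1 to 4, with the same highest and lowest array as both genes, and the unnamed position after ine had a mean of -1.15. t, the tan gene, whose hydrolase frees histamine from carcinine, had the highest SD over arrays of the 18 eye genes, 0.731, and stood at 0.34, -0.66, 0.60 and -0.89. Its 2 positive arrays came from different dye orientations, as did its 2 negative ones, and the mean was -0.15 ± 0.29 (SE, n = 4; limma adjusted p = 0.869).

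Screening pigment was covered by 2 of 19 listed genes. Pu, the GTP cyclohydrolase that starts pteridine synthesis, stood at 0.09, -0.30, -0.65 and -0.32, with 3 of 4 arrays below 0 and a mean of -0.29 ± 0.14 (SE, n = 4; 95% interval -0.65 to 0.06; limma adjusted p = 0.555). Without replicate 3 its mean was -0.17 ± 0.14 (SE, n = 3). p, the pink gene, needed for pigment granules, had a mean of 0.11 ± 0.10 (SE, n = 4). Of 6 listed opsins other than the major one, only Rh7 had a named spot, and it was empty on all arrays. Of 22 listed genes of photoreceptor structure and eye specification, 10 had a named spot and 0 had a value on at least 3 arrays.

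**Figure D2:**
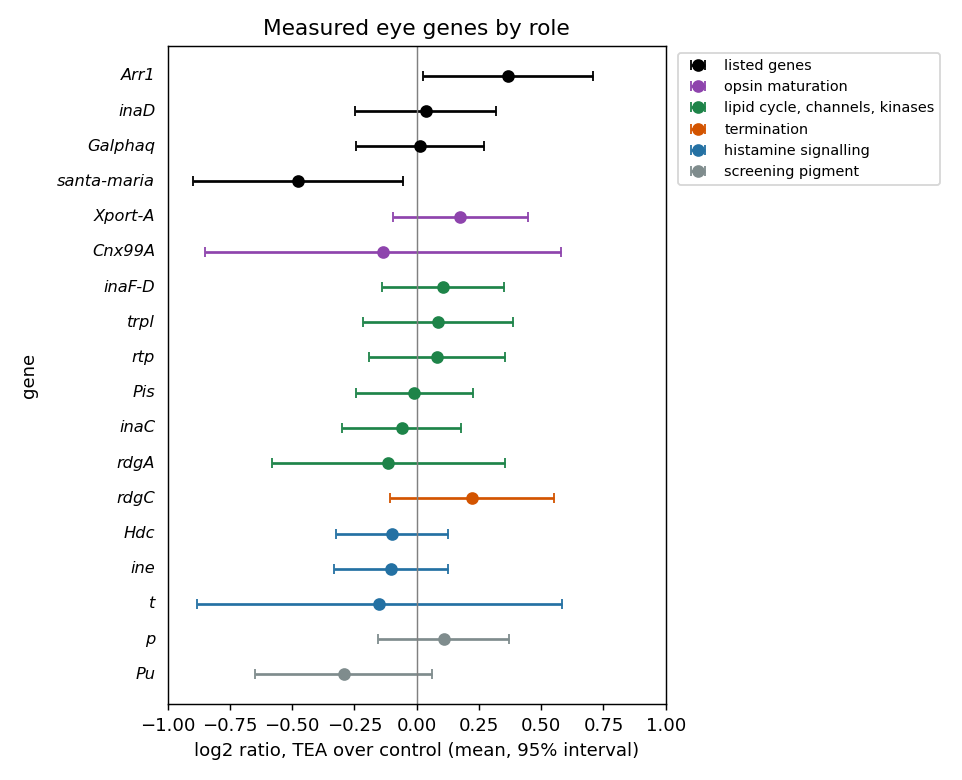
Mean log2 ratio of TEA over control with its 95% interval from limma (horizontal axis) for the 18 measured eye genes, one per row, coloured by role. The intervals of Arr1 and santa-maria lie on opposite sides of 0 and those of the other 16 genes include 0; no gene passed after adjustment over 3086 features.

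Taking the 18 eye genes as one list, 9 means lay above 0 and 9 below, the median was 0.00, and 0 genes passed in either direction. With the dye swap read as above, the range ran between santa-maria at -0.48 and Arr1 at 0.37, and with replicates 3 and 4 not turned it ran between Cnx99A at -0.58 and Pu at 0.19. Of the 18 genes, 2 had an unadjusted p under 0.05, beside the 9.75% of all features. A single sign on every array was seen in 2 of the 18, against 22.9% of all features. By array the medians of the 18 genes were 0.04, -0.09, 0.05 and -0.02 in replicates 1 to 4, close to 0 on each array.

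Dye orientation was compared gene by gene because 2 arrays carried TEA in each dye. The means of the 2 orientations had opposite signs in 10 of the 18 eye genes, against 49.3% of all features. In 5 of the 18, every array of one orientation lay opposite to every array of the other, against 23.7% of all features. Arr1 averaged 0.26 with TEA in Cy5 and 0.47 with TEA in Cy3, and the dye difference was -0.21 ± 0.26 (SE, n = 4; limma adjusted p = 0.739). santa-maria averaged -0.34 with TEA in Cy5 and stood at -0.75 on the single array with TEA in Cy3, a dye difference of 0.40 ± 0.26 (SE, n = 3; limma adjusted p = 0.509). Both genes thus kept their sign in each orientation. Galphaq averaged 0.13 with TEA in Cy5 and -0.10 with TEA in Cy3, and inaD averaged 0.09 with TEA in Cy5 and -0.02 with TEA in Cy3. Within 1 orientation a dye effect and a TEA effect cannot be told apart. Of all features, 0 had an adjusted p under 0.05 for the dye term in limma, and 487, or 15.8%, had an unadjusted p under 0.05.

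**Figure D3:**
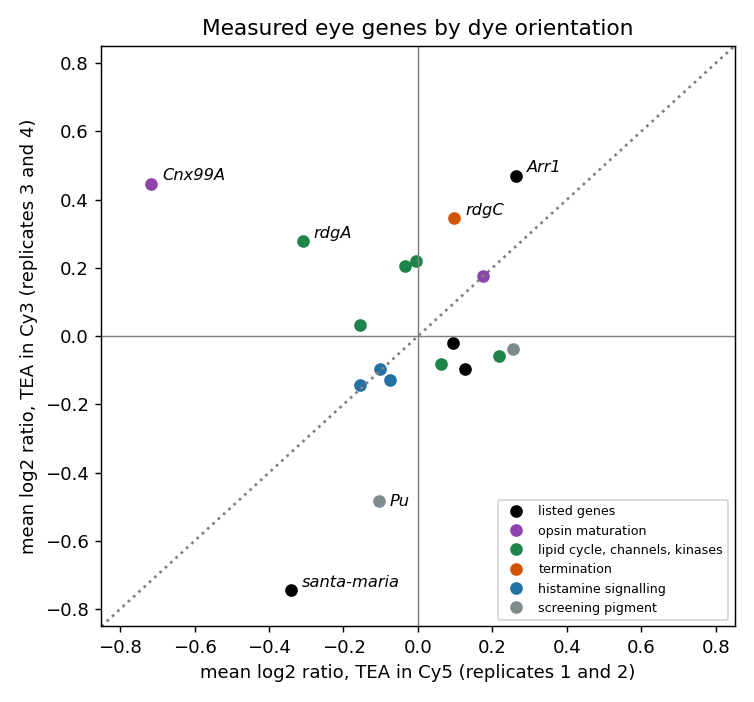
Mean log2 ratio of TEA over control on the 2 arrays with TEA in Cy5 (horizontal axis) against that on the arrays with TEA in Cy3 (vertical axis) for the 18 measured eye genes, coloured by role, with equality as a dotted line. Arr1 and santa-maria lie in the quadrants where both orientations share a sign, and 10 of the 18 genes, Galphaq, inaD, Cnx99A and rdgA among them, lie where the orientations oppose.

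Neighbouring and overlapping genes were inspected around the 4 measured genes. The position before Arr1 in the table, which is unnamed, stood at -0.16, -0.85, -0.12 and -0.15 in replicates 1 to 4, a mean of -0.32. The one after it, also unnamed, stood at -0.05, 0.35 and 0.48 in replicates 1, 2 and 4, a mean of 0.26, and like Arr1 was highest in replicate 4. The part of table position in the Arr1 values was not tested. Neither neighbour of santa-maria held a value. The unnamed position after Galphaq had a mean of 0.37, and the unnamed positions before and after inaD had means of -0.12 and -0.32. All of these lay farther from 0 than the gene beside them. By RefSeq's Release 6 gene table, which served to name genes and to find overlaps, santa-maria overlaps CG5973, whose own spots stood at 0.01 ± 0.18 (SE, n = 4), and inaD overlaps RpL23, a ribosomal protein gene, at -0.41 ± 0.32 (SE, n = 4). Galphaq overlaps CG45086, for which no spot was named, and Arr1 overlaps no gene in that table. Whether a spot's cDNA lies within an overlap is not known, so a share of the overlapping transcript in the santa-maria, inaD and Galphaq values was not tested.

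Markers of photoreceptors and of other head cells were set beside these values. Of 15 photoreceptor markers, 8 had named spots and 5 were measured, inaD, Arr1, trpl, inaC and rdgA. Spots for these 5 genes passed the authors' filters, and their means lay between -0.11 and 0.37 with 3 above 0. All 5 are among the 18 eye genes above, and the mean of 0.37 is that of Arr1 itself, so they give no separate comparison. In bulk heads a smaller number of cells of a type and less RNA per cell cannot be told apart. Head fat body markers had 6 measured of 13, with means between -0.03 and 0.75, a median of 0.42 and 0 past the threshold. Of these 6, 3 had an unadjusted p under 0.05, beside 9.75% of all features. Neuron markers had 1 measured of 14 at -0.03, glial markers 2 of 10 at -0.38 and 0.42, muscle markers 3 of 12 between -0.12 and 0.19, and haemocyte markers 1 of 7 at -0.01. An unadjusted p under 0.05 was also met by 1 glial marker, Gs2 at 0.42, and by 0 of the neuron, muscle and haemocyte markers. The part of these markers in the values of Arr1 and santa-maria was not tested.

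The 4 measured genes were followed through each processing. Arr1 stayed between 0.23 and 0.47 and santa-maria between -0.63 and -0.34 wherever the swapped arrays were turned, and neither passed under any processing. With replicates 3 and 4 not turned, which would hold if those arrays had been quantified the opposite way, Arr1 was -0.10 ± 0.21 (SE, n = 4) and santa-maria 0.02 ± 0.28 (SE, n = 3). The signs of Arr1 and santa-maria therefore rest on the reading of the dye swap.

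**Figure D4:**
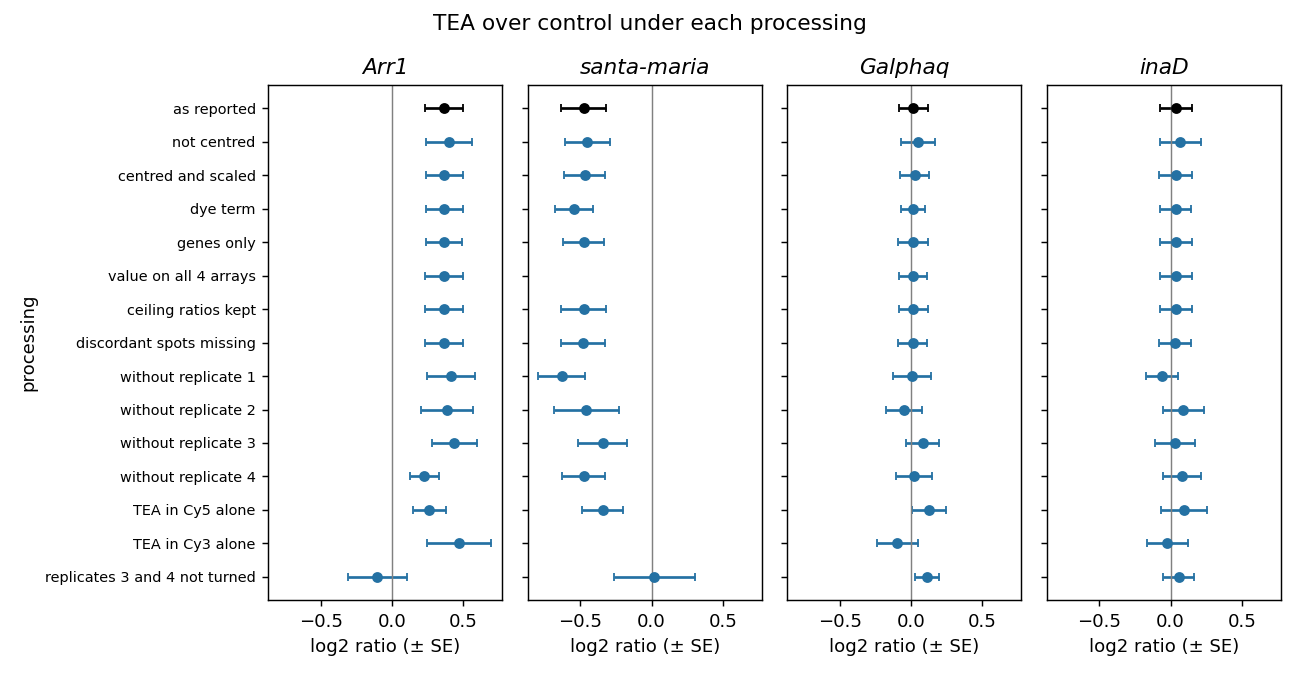
Log2 ratio of TEA over control with its standard error (horizontal axes) for the 4 measured listed genes, one panel each, under the reported processing in black and 14 alternatives in blue. Arr1 and santa-maria keep their side of 0 in all alternatives shown except the one in which replicates 3 and 4 are not turned.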

How the data were processed

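Heads of TEA-fed and control flies were compared on 4 two-colour cDNA arrays. The series' table holds the authors' deposited log2 ratios, a column for each array, made per the labels' design text: images were quantified in GenePix Pro 6.0, ratios normalised in Acuity 4.0, and spots emptied unless they passed filters on saturation, flags, uniformity and signal-to-noise. The log2 scale follows from a ceiling at 16.61. The direction of the ratio and the centring are unstated; column medians were -0.090, -0.077, -0.248 and -0.054 in replicates 1 to 4. Signal over background cannot be shown, since no intensities were used here.

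Replicates 3 and 4 were sign-reversed, ceiling values set to missing, 2 neighbouring spots averaged to a probe, and each array centred on its median over probes. Symbols were those of the platform annotation, brought up to date through RefSeq for 7447 of 7558 probes with 1 symbol; 51 probes had several and 6215 none. A gene was the mean of its probes. Features holding values on 3 or more arrays, 3086 in all, were fitted against 0 with limma 3.58.1 in R 4.3.3 (intercept only, two-sided, Benjamini-Hochberg over all features). Data were also simulated at the fitted spread without a dye effect. In them 50 features were changed at each of the log2 sizes 0.5, 1, 1.5 and 2. The test on 3086 features recovered 20% of the changes of 0.5 and 90% of those of 1, with 7 false calls. Many changed features ease the Benjamini-Hochberg cutoff, and the reported fit called 0 features. These shares are therefore not the recovery to be had for a single changed gene in the real data. Members and lists were chosen with earlier results of these data known. The rule for naming took all listed genes and every measured gene of the pathway lists. Alternatives are in the closing section. The drug-withdrawal period was not analysed here, and no sequences are shown because no sequence table was used.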

Additional observations from a re-analysis of the deposited data

How the results depend on the processing

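Neither the 4 measured phototransduction genes nor the 14 other eye genes passed limma under any of the 17 alternatives; the unadjusted p under 0.05 was met by 2 of them in the reported fit. Of 326 gene values under alternatives, 293 kept their direction and 33 changed sign, and none of these genes had passed in any fit. Part of this agreement was fixed in advance. For a gene with 1 measured probe and 4 values, several alternatives left the mean log2 ratio unchanged. They were the dye term, single probes, genes only, values required on all 4 or at least 2 arrays, and ceiling ratios kept. The cause of the sign changes was not tested. With replicates 3 and 4 not turned, the log2 ratio became -0.10 for Arr1, 0.021 for santa-maria, -0.0014 for Xport-A, 0.072 for Pis, -0.11 for inaF-D, -0.12 for trpl, -0.12 for rdgC, 0.026 for ine and 0.19 for Pu. With TEA in Cy3 alone it became -0.10 for Galphaq, -0.022 for inaD, 0.45 for Cnx99A, -0.059 for rtp, 0.033 for inaC and -0.037 for p, and with TEA in Cy5 alone 0.063 for Pis, -0.0064 for inaF-D and -0.034 for trpl. Single spots gave -0.021 for Galphaq, 0.0086 for Pis, and 0.067 and 0.22 for Cnx99A, whose second probe gave 0.15, and arrays that were not centred gave 0.023 for Pis. Leaving out 1 replicate in turn gave a range of 0.23 to 0.44 for Arr1, -0.63 to -0.34 for santa-maria, -0.050 to 0.081 for Galphaq and -0.057 to 0.091 for inaD, with the sign of Galphaq turning without replicate 2 and that of inaD without replicate 1. The same omissions gave -0.42 to 0.10 for Cnx99A, -0.31 to 0.019 for rdgA, -0.062 to 0.034 for Pis, -0.0063 to 0.18 for trpl, 0.12 to 0.33 for rdgC, -0.42 to -0.17 for Pu and -0.40 to 0.10 for t. The median over the 4 genes lay between -0.03 and 0.06 under these omissions, moved to 0.11 with TEA in Cy5 alone, and otherwise differed from 0.03 by less than the spread between arrays. santa-maria gave no value where 4 arrays were required or with TEA in Cy3 alone. Over all features limma called 20 with arrays not centred (3 higher, 17 lower), 15 with arrays centred and scaled (1 and 14), 11 with discordant spots missing (1 and 10), 8 with genes only (2 and 6), 1 without replicate 3 (0 and 1) and 0 in the reported fit (301 at an unadjusted p under 0.05) and in the other alternatives (176 to 590). No separate paired analysis was needed, because each array sets 1 TEA pool against 1 control pool. A ratio is itself the pair, so the reported fit against 0 is already a paired one. Of 16 eye genes with 4 values, 0 had an array standing apart from the others by Dixon's criterion. The number of arrays limits the precision, and signal over background cannot be shown.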
